A study of Mus musculus with 32 samples.

Results

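The homeobox genes outside the Hox clusters were described here in embryonic mouse kidneys that carried an ENL tumor mutation. Members were the genes whose symbols belong to the Dlx, Lhx, Lmx1, Pax, Msx, Barx, Emx, Vax, Nkx, Otx, Pitx, Alx, Prrx, Gsx, Cdx, Evx and Meox families, without Pax2, Pax8, Lhx1 and Meox1, which were left out by the rule. This gave 63 of the 55806 gene identifiers in the deposited tables: 29 NK and NK-like genes (Nkx, Msx, Barx, Dlx, Emx, Vax), 10 paired-like genes (Alx, Otx, Pitx, Prrx), 9 LIM homeodomain genes (Lhx, Lmx1), 8 ParaHox, Evx and Meox genes and 7 Pax genes. The rule used names only, and no measured value. Pax1 and Pax9 were kept under the rule although their proteins have a paired domain and no homeodomain.

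Homeobox genes encode transcription factors that bind DNA through a homeodomain, most often at a short AT-rich core. Those of the Hox clusters mark position along the body axis, and those outside the clusters are used in single organs and cell types, such as the aristaless-related Alx and Prrx genes in the mesenchyme of head and limb. In the kidney, Emx2 is needed for the early ureteric and nephrogenic tissue and Lmx1b for podocytes, the filtering cells of the glomerulus. ENL, the product of Mllt1, reads acylated histones and recruits factors of transcription elongation.

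RNA was read in 32 libraries of 11 groups. The mutant alleles T1 and T3 are conditional knock-ins of Enl (Mllt1), switched on by Cre and present on 1 of the 2 alleles. Whole kidneys of E18.5 embryos with the Six2-TGC transgene, which drives Cre in nephron progenitors, were Six2-TGCtg/+;Enl+/+ (WT), Six2-TGCtg/+;EnlT1/+ and Six2-TGCtg/+;EnlT3/+, 2 libraries each. Cells sorted for the Cre reporter tdTomato came from Six2-TGCtg/+;Enl+/+ and Six2-TGCtg/+;EnlT1/+ kidneys at E14.5 and at E18.5, 3 libraries per genotype and stage. In the stromal lineage, E18.5 kidneys were Foxd1GC/+;Enl+/+ or Foxd1GC/+;EnlT1/+, with 4 sorted and 3 whole-kidney libraries per genotype. Every Six2 group carried the Cre transgene, every Foxd1 group carried the Foxd1-GC knock-in, which takes the place of 1 Foxd1 allele, and all sorted groups carried the tdTomato reporter. The reporter stays on in all descendants of Six2 or Foxd1 cells, so a sorted library mixes progenitors with their differentiated offspring. Kidneys were dissociated with trypsin at E14.5 and with collagenase at E18.5, so that stage and dissociation cannot be told apart. Neither the labels nor the methods say how many embryos a library holds, and p values measure the spread between these libraries.

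Total counts ran from 106005614 to 157266455 per library in whole Six2 kidneys, from 76510702 to 137888792 in sorted Six2 cells, from 67137194 to 79343015 in whole Foxd1 kidneys and from 2557443 to 3508381 in sorted Foxd1 cells. Levels are given as CPM, the counts scaled to a common library size, after TMM scaling within each experiment. A level of 3 counts, taken as the limit of detection and covering counting error only, was 0.0191 to 0.0446 CPM in the deep experiments and 0.841 to 1.22 CPM in sorted Foxd1 cells. Mllt1 itself had log2 fold changes of -0.26 and -0.33 in whole Six2 kidneys with T1 and T3, -0.14 and -0.02 in sorted Six2 cells at E14.5 and E18.5, -0.13 in sorted Foxd1 cells and -0.27 in whole Foxd1 kidneys. None passed 1.5-fold, and the counts do not separate the wildtype from the mutant transcript. Summed stroma markers lay between 6750 and 9210 CPM in sorted Foxd1 cells and between 315 and 1740 CPM in sorted Six2 cells, where the progenitor gene Six2 itself stood between 79.0 and 933 CPM. In whole Six2 kidneys both T1 libraries carried the Y-linked Ddx3y (122 and 126 CPM) and both T3 libraries Xist (960 and 1330 CPM), while the WT group held 1 library of each kind, so that allele and sex cannot be told apart there. Each group of sorted Six2 cells held both kinds, with Ddx3y at 122, 0 and 0 CPM in WT and 130, 132 and 0 CPM in T1 at E14.5. All sorted Foxd1 libraries carried Ddx3y (82.4 to 112 CPM) and all whole Foxd1 libraries Xist (440 to 977 CPM).

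Few members were abundant. A group mean of at least 1 CPM was reached by 20 of the 63 members in at least 1 group and missed by 43. Nkx2-1 and Nkx2-6 had no count in any of the 32 libraries. Per kilobase of exon, the scale on which genes can be compared with one another, Emx2 stood first in WT sorted Six2 cells at E18.5 with 21.1 ± 0.962 CPM per kb (SD, n = 3), before Lmx1b with 7.86 ± 0.192 and Nkx6-1 with 5.93 ± 0.848, and the libraries of these 3 genes did not overlap. At E14.5 Emx2 (15.7 ± 3.47 CPM per kb) and Meox2 (13.3 ± 1.63) overlapped. In WT sorted Foxd1 cells the order was Alx1 with 12.8 ± 1.15 CPM per kb (SD, n = 4), Prrx2 with 8.58 ± 1.97 and Prrx1 with 2.68 ± 0.991, the last overlapping Meox2 at 2.6 ± 0.717.

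Emx2 was also first in both kinds of whole kidney. In WT whole Six2 kidneys it stood at 33.3 ± 5.07 CPM per kb (SD, n = 2), and Alx1 followed with 5.29 ± 0.257. In WT whole Foxd1 kidneys Emx2 stood at 28.6 ± 0.905 CPM per kb (SD, n = 3), before Emx1 at 12 ± 0.545 and Prrx2 at 4.78 ± 0.535. In bulk samples, fewer cells of a type and less RNA per cell cannot be told apart.

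In all, 22 members passed the test in at least 1 of the 6 comparisons of a mutant with WT, and 14 of them in 2 or more, out of 38 members tested in at least 1. Of all genes tested in at least 1, 22.3% were called in 1 or more and 10.6% in 2 or more. A member was called when it changed by more than 1.5-fold with a Benjamini-Hochberg adjusted p below 0.05 over all tested genes in edgeR's quasi-likelihood test. Counts are given beside the percentage of all tested genes called the same way. A member had to have enough counts to be tested, which leaves out most of the silent members, and a member that is high in 1 group only can pass that filter because of this group. The counts over tested members are therefore descriptions.

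Sorted Six2 cells at E14.5 had 27 members tested. Of these, 4 were higher in T1 (among them Alx1, Msx2 and Prrx1), where 4.11% of all tested genes were higher, and 3 were lower (Lmx1b, Meox2, Nkx6-1), where 2.28% of all genes were lower. At E18.5, of 31 tested members 8 were higher (among them Alx1, Alx4, Barx2, Emx2, Evx2, Msx2 and Prrx1; 6.14% of all genes) and 3 lower (among them Lmx1b and Nkx6-1; 5.54% of all genes). The median log2 fold change of the tested members was 0.27 at E14.5 and 0.34 at E18.5, beside 0.003 and 0.015 for all tested genes. At both stages 4 members rose and 2 fell, of 24 tested at both, beside 2.17% and 0.991% of all genes tested at both.

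Whole Six2 kidneys had 28 members tested. With T1, 4 were higher (among them Barx2, Msx2 and Pax3; 2.88% of all genes) and 5 lower (among them Dlx5, Emx1 and Lmx1b; 4.88% of all genes). With T3, 9 were higher (Alx1, Alx4, Barx2, Cdx1, Dlx3, Lhx5, Msx2, Pax3, Prrx1; 4.34% of all genes) and 2 lower (among them Lmx1b; 5.28% of all genes). The median log2 fold change of the tested members was 0.24 with T1 and 0.58 with T3, beside -0.013 and -0.002 for all tested genes. Both comparisons use the same 2 WT libraries. In the direct test of T3 against T1, 0 of 28 members were called by edgeR's quasi-likelihood test, its exact test or DESeq2, 4 were higher and 2 lower at an unadjusted p under 0.05, and 0.00418% of all genes were called in either direction by the quasi-likelihood test. Over all genes the exact test called 69 higher and 19 lower, and DESeq2 54 and 17. An allele in which a member missed the threshold was therefore not shown to differ from the other.

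Few members could be tested in the sorted stroma, which was sequenced to a lower depth. Of 7 members with enough counts in sorted Foxd1 cells, Msx1 was higher in T1 (3.63% of all genes were higher) and Alx1 lower (2.18% of all genes were lower). In whole Foxd1 kidneys, of 23 tested members 3 were higher (Barx1, Dlx3, Meox2; 2.65% of all genes) and 3 lower (among them Dlx5 and Nkx6-2; 7.53% of all genes). The median log2 fold change of the tested members was 0.29 in sorted cells and 0.02 in whole kidneys, beside -0.004 and -0.003 for all tested genes. Alx1, higher in 3 comparisons and lower in 1, and Meox2, higher in 1 and lower in 1, were the members called in both directions.

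**Figure D1:**
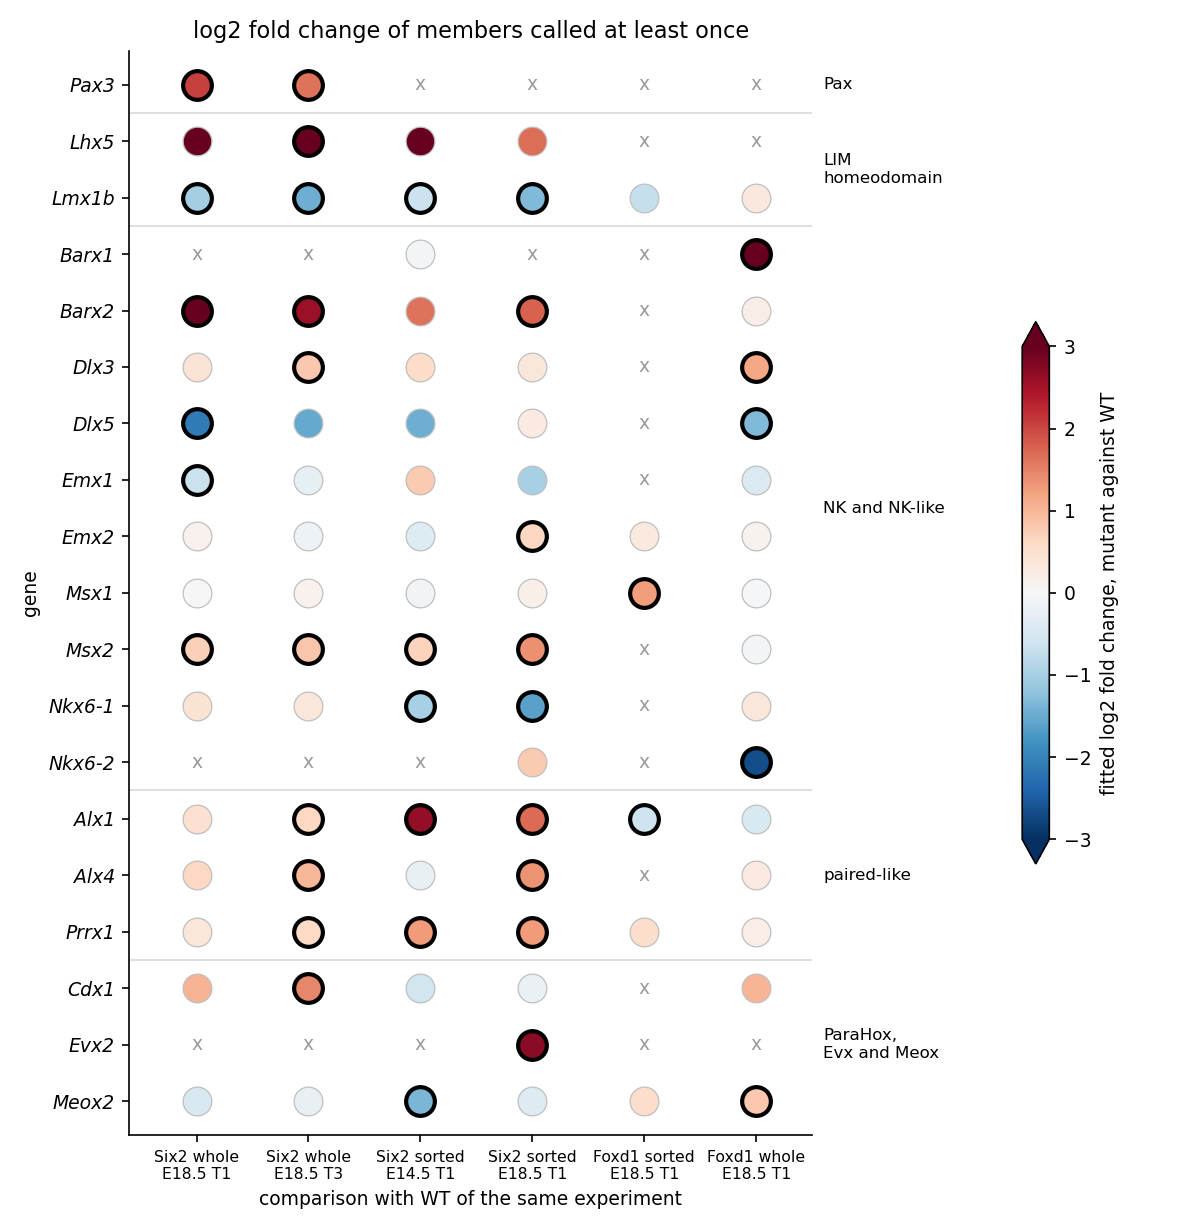
Fitted log2 fold change of 19 of the members called at least once (rows, grouped by family) in the 6 comparisons of a mutant with WT (columns). Color gives the log2 fold change and saturates at 3 in either direction, a black ring marks a call (adjusted p under 0.05 and over 1.5-fold) and x a gene with too few counts to test. Msx2 and Lmx1b are ringed in all 4 Six2 columns, Msx2 higher and Lmx1b lower, and neither is ringed in the Foxd1 columns.

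Among the paired-like genes, Alx1, Alx4 and Prrx1 rose in mutant cells of the Six2 lineage. Alx1 (ENSMUSG00000036602, chr10:102998707-103030215, minus strand, GRCm38), a factor of craniofacial mesenchyme, was measured at 0.593, 1.10 and 1.87 CPM in WT sorted Six2 cells at E14.5 and at 7.66, 4.59 and 9.58 CPM in T1. At E18.5 the WT libraries stood at 0.720, 0.942 and 0.625 CPM and the T1 libraries at 2.88, 2.47 and 2.13 CPM. The groups did not overlap at either stage, and the log2 fold changes were 2.63 ± 0.41 (SE, adjusted p = 0.00468) and 1.71 ± 0.24 (adjusted p = 0.000196).

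Whole Six2 kidneys held far more Alx1 RNA, 31.5 and 29.4 CPM in WT, 43.2 and 41.5 CPM with T1 and 51.8 and 42.3 CPM with T3. All 4 mutant libraries were above both WT libraries. The log2 fold change was 0.48 ± 0.10 (SE, adjusted p = 0.0176) with T1, under 1.5-fold and not called, and 0.63 ± 0.10 (adjusted p = 0.00465) with T3, a call that was lost without T3 library 1, where the value was 0.48.

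In the stromal lineage Alx1 was lower in T1. The 4 WT sorted Foxd1 libraries stood at 75.7, 82.2, 69.1 and 67.8 CPM and the T1 libraries at 48.4, 45.6, 55.2 and 44.0 CPM, with no overlap (log2 fold change -0.62 ± 0.10, SE, adjusted p = 0.000276). Without WT library 2, T1 library 2 or T1 library 4 it was no longer called, within a range from -0.69 to -0.56 over all libraries left out in turn. In whole Foxd1 kidneys it stood at 21.9, 22.8 and 20.6 CPM in WT and at 15.3, 16.1 and 15.7 CPM in T1 (-0.48 ± 0.07, adjusted p = 0.000189), also without overlap but under 1.5-fold.

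Alx4 (ENSMUSG00000040310, chr2:93642384-93681339, plus strand), which acts in limb and skull, was called at E18.5 and not at E14.5. At E14.5 the WT sorted Six2 libraries were scattered, at 4.41, 1.78 and 0.810 CPM, and overlapped the T1 libraries at 1.83, 2.41 and 1.74 CPM (log2 fold change -0.22 ± 0.51, SE, adjusted p = 0.848). At E18.5 they stood at 0.467, 0.547 and 0.412 CPM against 1.19, 1.18 and 1.25 CPM, without overlap (1.34 ± 0.29, adjusted p = 0.00425), a call that was lost in a fit of all 12 sorted Six2 libraries (adjusted p = 0.0674). The difference between the stages was 1.57 ± 0.63 with an adjusted p of 0.158, and so was not shown.

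Alx4 in whole Six2 kidneys stood at 1.07 and 1.77 CPM in WT, 2.23 and 2.16 CPM with T1 and 2.76 and 2.94 CPM with T3. Both mutant groups were above WT, and T3 passed the test (log2 fold change 1.00 ± 0.24, SE, adjusted p = 0.0252), but not without T1 library 2 or either T3 library (range 0.69 to 1.43), while T1 gave 0.63 ± 0.24 (adjusted p = 0.138). Foxd1 libraries showed no such order, with 0.560, 1.47, 2.85 and 1.09 CPM in WT and 0.745, 1.01, 0.727 and 1.30 CPM in T1 sorted cells, most of them near the limit of detection. Whole Foxd1 kidneys gave 1.18, 1.29 and 1.08 CPM in WT and 1.23, 1.51 and 1.55 CPM in T1 (0.27 ± 0.21, adjusted p = 0.338).

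Prrx1 (ENSMUSG00000026586, chr1:163245119-163313710, minus strand), a marker of limb and craniofacial mesenchyme, was the most abundant of these genes in the sorted Six2 cells. At E14.5 WT libraries held 12.4, 11.4 and 12.7 CPM and T1 libraries 28.4, 27.2 and 32.0 CPM. At E18.5 the WT values were 16.0, 17.8 and 23.2 CPM and the T1 values 34.9, 54.2 and 47.4 CPM. Separation was complete at both stages, with log2 fold changes of 1.28 ± 0.09 (SE, adjusted p = 0.000104) and 1.27 ± 0.16 (adjusted p = 6.81e-05).

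The rise of Prrx1 was smaller in whole Six2 kidneys, from 22.0 and 21.8 CPM in WT to 28.7 and 27.6 CPM with T1 and 33.6 and 32.2 CPM with T3. The T3 change of 0.59 ± 0.07 on the log2 scale (SE, adjusted p = 0.00115) was just over 1.5-fold and fell to 0.57 without T3 library 1, where it was no longer called, and the T1 change of 0.36 ± 0.07 (adjusted p = 0.0121) was under 1.5-fold. In sorted Foxd1 cells Prrx1 was read at 31.1, 25.6, 43.9 and 17.9 CPM in WT and 51.0, 35.6, 44.7 and 37.5 CPM in T1, overlapping (0.52 ± 0.19, adjusted p = 0.09). Whole Foxd1 kidneys overlapped too, at 20.3, 24.1 and 19.2 CPM in WT and 27.9, 21.5 and 24.6 CPM in T1 (0.22 ± 0.10, adjusted p = 0.111).

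Its paralog Prrx2 (ENSMUSG00000039476, chr2:30834972-30881251, plus strand) was called in no comparison with WT. Sorted Six2 cells held 12.5, 8.86 and 12.6 CPM in WT and 16.6 ± 1.96 CPM (SD, n = 3) in T1 at E14.5 (log2 fold change 0.57 ± 0.15, SE, adjusted p = 0.0452), and 4.03, 3.31 and 5.01 CPM in WT and 4.99, 6.64 and 6.26 CPM in T1 at E18.5 (0.54 ± 0.18, adjusted p = 0.0479). Every T1 library was above WT at E14.5, while at E18.5 the lowest T1 and the highest WT library overlapped. Whole Six2 kidneys gave 3.16 and 3.96 CPM in WT, 4.91 and 4.77 CPM with T1 and 5.52 and 5.11 CPM with T3, higher in all 4 mutant libraries but under 1.5-fold. The sorted Foxd1 libraries overlapped, at 13.2, 20.6, 13.8 and 19.7 CPM in WT and 9.69, 14.4, 11.3 and 15 CPM in T1, as did the whole Foxd1 kidneys at 8.36, 10.5 and 9.32 CPM in WT and 11.3, 9.34 and 10.4 CPM in T1.

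The order of the T1 libraries followed that of the stroma markers in part. The 7 stroma markers summed to 433, 483 and 594 CPM in WT and 1740, 848 and 1560 CPM in T1 sorted Six2 cells at E14.5, and to 500, 554 and 315 CPM in WT and 779, 898 and 825 CPM in T1 at E18.5. Of the 7, 5 were higher in every T1 library at E14.5 (Pdgfra, Pdgfrb, Col1a1, Col3a1, Dcn) and Foxd1 was lower in every one. At E18.5, 4 were higher (Pdgfra, Col1a1, Col3a1, Dcn) and 2 lower (Foxd1, Tcf21), and none was at 0. The T1 library with the lowest sum at E14.5 also had the lowest Alx1 and Prrx1 of the T1 libraries. At E18.5 the T1 libraries had the same order in Prrx1 and in the sums. Alx1 did not follow there, since the T1 library with the lowest sum at E18.5 had the highest Alx1. The WT library with the lowest sum at E18.5 had the highest WT level of Prrx1 (23.2 CPM). The markers of neurons and neural crest were also higher, with sums of 24.6 to 29.2 CPM in WT and 36.9 to 41.8 CPM in T1 at E14.5, and of 24.0 to 32.6 CPM and 52.5 to 57.3 CPM at E18.5, and so were the macrophage markers at E18.5, with 36.6 to 39.4 CPM and 90.7 to 105 CPM. The red cell markers summed to 104 to 210 CPM in WT and 1550 to 2270 CPM in T1 at E18.5, with all 5 higher in every T1 library. At E14.5 their sums overlapped, at 0.772 to 102 CPM in WT and 61.5 to 105 CPM in T1. Whether RNA of any of these cell types took part in the rise of Alx1, Alx4, Prrx1 and Msx2 was not tested.

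**Figure D2:**
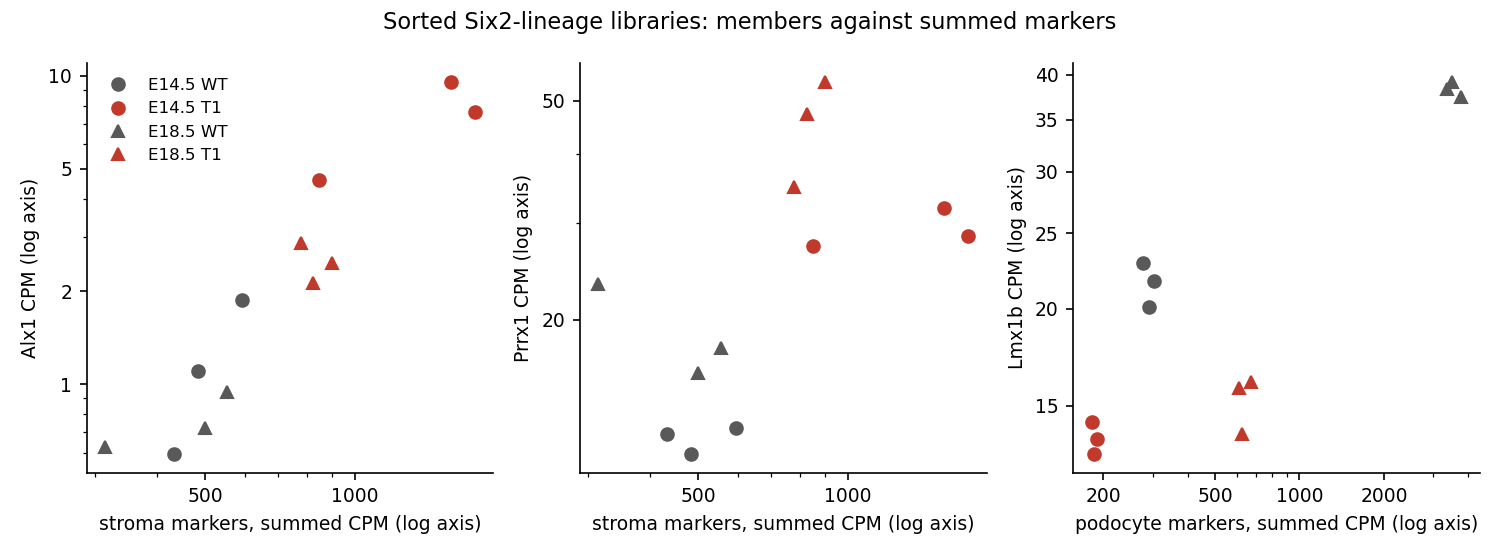
Levels of Alx1, Prrx1 and Lmx1b (y axes, CPM, log scale) against the summed markers of stroma or podocytes (x axes, summed CPM, log scale), 1 point per sorted Six2 library. T1 libraries (red) lie at stroma sums of 779 to 1740 CPM and WT libraries (gray) at 315 to 594 CPM. At E18.5 the Lmx1b levels of WT libraries (37.4 to 39.2 CPM) lie at podocyte sums of 3350 to 3770 CPM and those of T1 libraries (13.8 to 16.1 CPM) at sums of 608 to 673 CPM.

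Among the NK and NK-like genes, Msx2 (ENSMUSG00000021469, chr13:53466884-53473074, minus strand), a homeobox repressor that answers to BMP signals in limb and skull, was called higher in every Six2 comparison. In sorted cells at E14.5 the WT libraries stood closely together at 4.36, 4.35 and 4.55 CPM and the T1 libraries at 7.22, 7.49 and 6.55 CPM (log2 fold change 0.70 ± 0.10, SE, adjusted p = 0.0037). At E18.5 the levels were 0.316, 0.891 and 0.838 CPM in WT and 1.68, 1.94 and 1.68 CPM in T1 (1.38 ± 0.34, adjusted p = 0.0106). No mutant library overlapped WT at either stage. The E14.5 call was lost in a fit of all 12 sorted Six2 libraries (log2 fold change 0.68, adjusted p = 0.0819).

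Msx2 in whole Six2 kidneys rose from 1.41 and 1.36 CPM in WT to 2.04 and 2.53 CPM with T1 (log2 fold change 0.72 ± 0.17, SE, adjusted p = 0.0299) and 2.34 and 2.58 CPM with T3 (0.83 ± 0.17, adjusted p = 0.0152). The T1 call was lost when any 1 of the 6 libraries was left out (range 0.57 to 0.89) and the T3 call without either T3 library (range 0.76 to 0.90). Whole Foxd1 kidneys overlapped at 1.67, 1.47 and 1.41 CPM in WT and 1.37, 1.34 and 1.59 CPM in T1 (-0.08 ± 0.19, adjusted p = 0.782). Sorted Foxd1 libraries were at or under the limit of detection in the mean of both genotypes, with 0.280, 0.589, 0.813 and 1.46 CPM in WT and 1.12, 1.34, 0 and 0.326 CPM in T1.

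Its paralog Msx1 (ENSMUSG00000048450, chr5:37820485-37824583, minus strand) answers to BMP signals too. It rose in sorted Foxd1 cells, from 1.12, 2.06, 2.85 and 2.19 CPM in WT to 3.73, 4.70, 5.09 and 5.54 CPM in T1, with all 4 T1 libraries above WT (log2 fold change 1.25 ± 0.32, SE, adjusted p = 0.0171). The call was lost without WT library 1, T1 library 3 or T1 library 4 (range 1.02 to 1.43) and with DESeq2. In sorted Six2 cells and in both kinds of whole kidney its groups overlapped, with log2 fold changes from -0.10 to 0.17, and the difference between the lineages was 1.08 ± 0.48 (SE, adjusted p = 0.146), so that it was not shown.

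The promoters of the members that moved alike at both stages in sorted Six2 cells are given here for comparison. Of these 6 members, 4 have an entry in the RefSeq table of starts used here, Prrx1 and Msx2, which rose, and Lmx1b and Nkx6-1, which fell, while Alx1 is named only. Each line gives the 250 bases before the RefSeq start, read 5′ to 3′ on the strand of the gene in GRCm38.p6, at chr1:163313651-163313900 for Prrx1, chr13:53472781-53473030 for Msx2, chr2:33641099-33641348 for Lmx1b and chr5:101664712-101664961 for Nkx6-1, all on the minus strand. Capitals mark the core letters TAAT, read on either strand as TAAT or ATTA, with overlapping matches (TAATTA holds both) counted separately.
Prrx1: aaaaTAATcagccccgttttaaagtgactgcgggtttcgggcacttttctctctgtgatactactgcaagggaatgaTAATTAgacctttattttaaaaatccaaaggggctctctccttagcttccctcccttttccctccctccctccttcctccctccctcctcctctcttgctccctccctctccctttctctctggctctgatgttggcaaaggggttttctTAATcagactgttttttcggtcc
Msx2: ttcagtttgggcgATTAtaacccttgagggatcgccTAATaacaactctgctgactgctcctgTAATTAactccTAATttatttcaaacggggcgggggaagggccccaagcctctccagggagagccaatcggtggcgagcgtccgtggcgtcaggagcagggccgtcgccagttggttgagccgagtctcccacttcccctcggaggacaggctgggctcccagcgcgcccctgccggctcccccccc
Lmx1b: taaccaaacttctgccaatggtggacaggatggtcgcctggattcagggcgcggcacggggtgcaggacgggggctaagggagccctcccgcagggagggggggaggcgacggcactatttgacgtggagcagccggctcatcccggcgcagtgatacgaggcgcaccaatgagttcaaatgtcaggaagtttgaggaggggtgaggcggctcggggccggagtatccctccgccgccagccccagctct
Nkx6-1: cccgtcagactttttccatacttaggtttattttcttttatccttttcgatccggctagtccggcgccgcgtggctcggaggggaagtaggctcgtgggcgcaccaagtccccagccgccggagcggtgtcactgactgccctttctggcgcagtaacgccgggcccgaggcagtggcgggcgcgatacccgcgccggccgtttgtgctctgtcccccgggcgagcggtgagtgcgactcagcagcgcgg

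The Prrx1 sequence holds 4 such cores and the Msx2 sequence 5, and those of Lmx1b and Nkx6-1 hold 0. The CG count was 4 in Prrx1, 16 in Msx2, 19 in Lmx1b and 30 in Nkx6-1. Over all members, 44 of 63 matched the table with 52 promoters, of which 27 (51.9%) held the core, beside 54.9% of all 32851 promoters. Member promoters held from 4 to 40 CG pairs, and the median of all promoters 6.0. A match of these letters is a description of the sequence, and no binding was measured.

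Barx2 (ENSMUSG00000032033, chr9:31846044-31913462, minus strand), a homeobox factor of developing epithelia and muscle, showed the largest rise of a called member in whole Six2 kidneys with T1. It went from 0.254 and 0.441 CPM in WT to 2.95 and 2.74 CPM with T1 (log2 fold change 3.02 ± 0.27, SE, adjusted p = 0.000404) and 2.29 and 1.91 CPM with T3 (2.58 ± 0.27, adjusted p = 0.000646). In sorted Six2 cells it was scarce at E14.5, with 0.0156, 0.0357 and 0.0917 CPM in WT and 0.169, 0.115 and 0.158 CPM in T1 (1.63 ± 0.69, adjusted p = 0.18), and at E18.5 it stood at 1.02, 0.713 and 1.38 CPM in WT and 3.97, 3.47 and 3.01 CPM in T1 (1.76 ± 0.25, adjusted p = 0.000177).

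All mutant libraries of the Six2 lineage thus held more Barx2 than their controls, and the calls in whole kidneys and in E18.5 cells were kept under every alternative tried. Whole Foxd1 kidneys overlapped, at 0.184, 0.357 and 0.348 CPM in WT and 0.401, 0.292 and 0.331 CPM in T1 (log2 fold change 0.20 ± 0.41, SE, adjusted p = 0.744), and sorted Foxd1 libraries had at most 0.365 CPM, under the limit of detection.

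Barx1 (ENSMUSG00000021381, chr13:48662998-48666507, plus strand), its relative in stomach mesenchyme, was called in the stromal lineage. In whole Foxd1 kidneys it went from 0.0263, 0.0255 and 0.147 CPM in WT to 1.11, 0.956 and 1.19 CPM in T1 (log2 fold change 4.01 ± 0.50, SE, adjusted p = 4.66e-05), the largest rise of a called member there. Sorted Foxd1 cells had no Barx1 count in the 4 WT libraries and 0, 1.34, 1.82 and 0.326 CPM in T1, too few for the main test. In the Six2 lineage it stayed at or under 0.186 CPM in every library.

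Pax1 (ENSMUSG00000037034, chr2:147361925-147393295, plus strand), a factor of the sclerotome, was another gene with no count in WT stroma. The 4 WT sorted Foxd1 libraries were at 0, and the 4 T1 libraries held 2.24, 1.68, 3.27 and 1.30 CPM. Against a limit of 3 counts per library this is at least 2.1-fold higher. Pax1 did not pass the filter on low counts and was not tested in the main analysis. Without the filter, edgeR called Pax1 (log2 fold change 5.65 ± 1.09, SE, adjusted p = 1.15e-05) and Barx1 (4.42 ± 1.33, adjusted p = 0.0197) higher, with sizes that depend on the prior count. Whole Foxd1 kidneys showed no rise of Pax1, with 0.0263, 0.0766 and 0 CPM in WT and 0.0446, 0 and 0.0138 CPM in T1. Pax1 in sorted Six2 cells at E18.5 was at 0 in the 3 WT libraries and at 0, 0.125 and 0.0932 CPM in T1.

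The promoters of these genes, which were at 0 in all WT libraries of sorted stroma, are printed next, as the 250 bases before the RefSeq start on the plus strand of GRCm38.p6, at chr2:147364744-147364993 for Pax1 and chr13:48662786-48663035 for Barx1. Neither holds TAAT or ATTA, so no letters are in capitals. Pax1 holds 10 CG pairs and Barx1 40, the most of any member promoter.
Pax1: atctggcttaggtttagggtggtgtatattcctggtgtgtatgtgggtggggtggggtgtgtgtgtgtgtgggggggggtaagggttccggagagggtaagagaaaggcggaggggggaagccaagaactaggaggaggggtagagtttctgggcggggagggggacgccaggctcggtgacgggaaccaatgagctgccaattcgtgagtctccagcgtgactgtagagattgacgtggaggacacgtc
Barx1: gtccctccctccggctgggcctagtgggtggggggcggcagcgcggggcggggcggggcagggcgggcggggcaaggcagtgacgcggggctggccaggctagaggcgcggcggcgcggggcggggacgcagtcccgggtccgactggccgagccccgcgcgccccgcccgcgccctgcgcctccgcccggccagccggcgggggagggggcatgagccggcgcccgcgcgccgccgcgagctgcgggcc

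Nkx6-1 (ENSMUSG00000035187, chr5:101658139-101664996, minus strand), known from pancreatic beta cells and the ventral spinal cord, rose during normal development and was lower in mutant cells. At E14.5 sorted Six2 cells held 2.62, 2.51 and 3.72 CPM in WT and 1.44, 1.62 and 1.36 CPM in T1 (log2 fold change -0.99 ± 0.20, SE, adjusted p = 0.0131, not called without T1 library 3, range -1.09 to -0.79). At E18.5 the WT libraries had reached 21.6, 17.5 and 16.7 CPM and the T1 libraries 4.91, 6.02 and 7.10 CPM (-1.63 ± 0.15, adjusted p = 3.73e-06). Every T1 library was below every WT library of its stage.

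Whole Six2 kidneys did not show this fall of Nkx6-1, with 1.40 and 1.77 CPM in WT, 1.92 and 2.40 CPM with T1 and 2.09 and 1.92 CPM with T3 (log2 fold changes 0.44 ± 0.19 and 0.34 ± 0.20, SE, adjusted p = 0.2 and 0.296). Sorted Foxd1 cells held 1.12, 0.589, 0.407 and 1.09 CPM in WT and 2.61, 1.34, 1.09 and 1.30 CPM in T1, near the limit of detection and too low for the test within that lineage. The effect of T1 differed between sorted Foxd1 and Six2 cells by 2.54 ± 0.55 on the log2 scale (SE, adjusted p = 0.0025), a size that is not resolved at this depth because the WT mean in Foxd1 cells was under the limit of detection. Whole Foxd1 kidneys gave 2.67, 2.74 and 2.69 CPM in WT and 3.31, 3.24 and 3.67 CPM in T1 (0.33 ± 0.14, adjusted p = 0.0806).

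**Figure D3:**
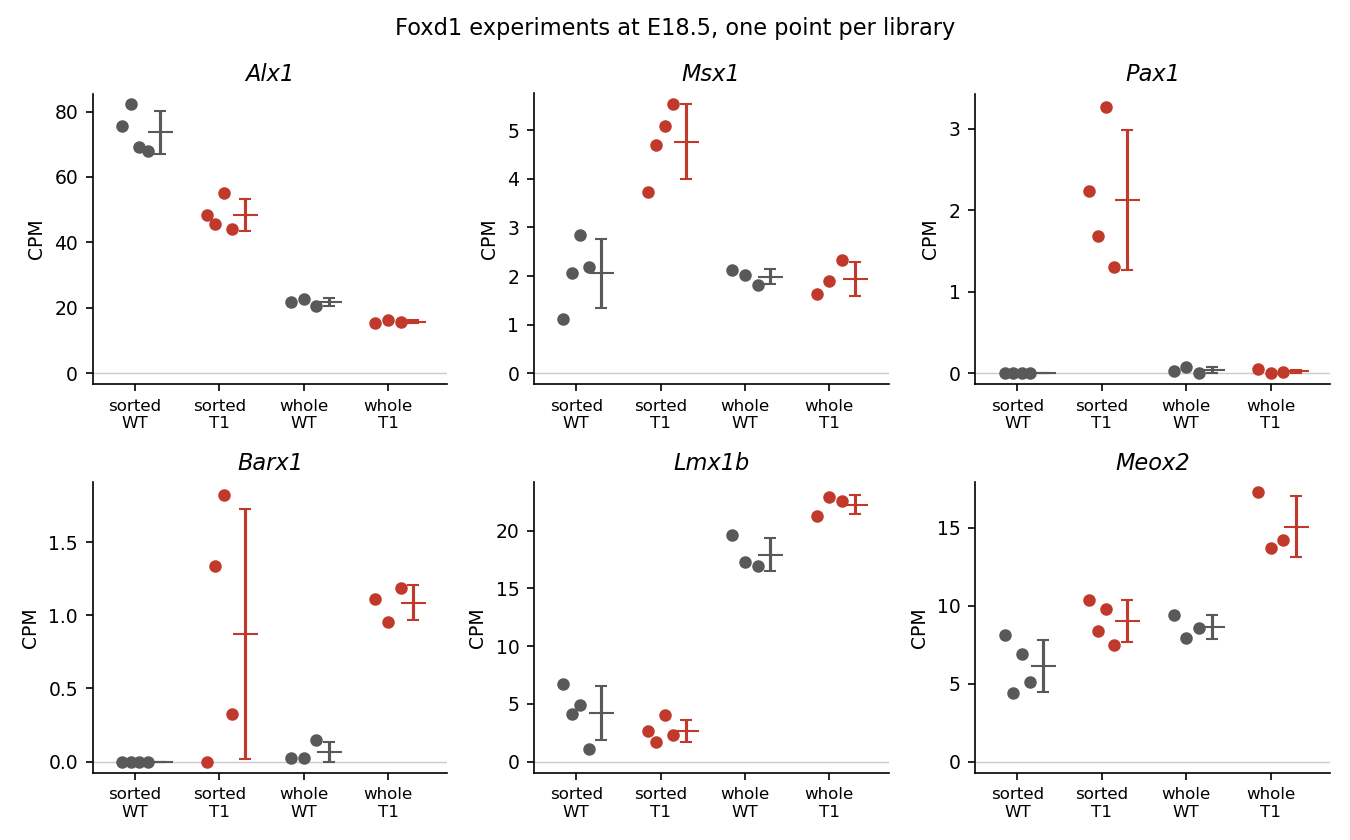
Levels of 6 members in the Foxd1 experiments at E18.5 (y axes, CPM from 0), 1 point per library, with the group mean and SD beside the points. WT is gray and T1 red, 4 sorted and 3 whole-kidney libraries per genotype. Alx1 is lower in T1 in both tissues, Msx1 is higher in the sorted cells, Pax1 is at 0 in the sorted WT libraries and between 1.30 and 3.27 CPM in T1, and Meox2 is higher in T1 whole kidneys.

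Nkx6-2 (ENSMUSG00000041309, chr7:139579376-139582797, minus strand), a factor of glial cells, fell in whole Foxd1 kidneys from 0.276, 0.179 and 0.362 CPM to 0, 0.0531 and 0.0691 CPM, the T1 mean being under the limit of detection (log2 fold change -2.66 ± 0.70, SE, adjusted p = 0.0102). The call was lost without WT library 3 (range -3.21 to -2.12). Inpp5a shares 12.9% of the exon length of Nkx6-2, and the reads were counted without strand.

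The Dlx genes, which pattern the jaw and the forebrain, moved in different directions. Dlx3 (ENSMUSG00000001510, chr11:95120119-95125296, plus strand) was higher in whole Foxd1 kidneys with T1, at 0.592, 0.625 and 0.777 CPM in WT and 0.995, 1.66 and 1.82 CPM in T1 (log2 fold change 1.17 ± 0.27, SE, adjusted p = 0.00487). In whole Six2 kidneys it stood at 0.914 and 1.24 CPM in WT, 1.5 and 1.36 CPM with T1 (0.41 ± 0.22, adjusted p = 0.31) and 1.64 and 2.12 CPM with T3 (0.81 ± 0.22, adjusted p = 0.0462). The T3 call was lost without any 1 library other than WT library 2 (range 0.61 to 1.06). Sorted Six2 cells held 2.70, 1.37 and 2.17 CPM in WT and 2.76, 3.01 and 3.37 CPM in T1 at E14.5, and 3.80, 3.63 and 4.56 CPM in WT and 4.96, 5.00 and 5.19 CPM in T1 at E18.5. All T1 libraries lay above WT there, but with adjusted p of 0.177 and 0.129. In sorted Foxd1 cells Dlx3 had at most 1.34 CPM in a library, and 0 in 3 of 4 WT libraries.

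Dlx5 (ENSMUSG00000029755, chr6:6877805-6882085, minus strand) fell in the same whole kidneys. It went from 0.261 and 0.428 CPM in WT to 0.102 and 0.0509 CPM with T1 (log2 fold change -2.13 ± 0.51, SE, adjusted p = 0.0292) and 0.140 and 0.0974 CPM with T3 (-1.54 ± 0.50, adjusted p = 0.0742) in whole Six2 kidneys, and from 0.448, 0.408 and 0.375 CPM to 0.134, 0.106 and 0.249 CPM in whole Foxd1 kidneys (-1.32 ± 0.44, adjusted p = 0.0326). Mutant libraries were below WT in each case. The Six2 call was lost without any 1 library other than WT library 1 (range -2.72 to -1.70), and the Foxd1 call without any 1 library other than T1 library 3 (range -1.76 to -1.09). Sorted Six2 cells gave 0.663, 0.200 and 0.176 CPM in WT and 0.113, 0.164 and 0.0934 CPM in T1 at E14.5, and 0.101, 0.140 and 0.114 CPM in WT and 0.152, 0.138 and 0.133 CPM in T1 at E18.5. Sorted Foxd1 libraries were at 0 apart from 1 T1 library at 0.335 CPM.

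Emx2 (ENSMUSG00000043969, chr19:59458372-59465357, plus strand), the first member per kilobase in WT whole kidneys and in WT sorted Six2 cells at E18.5, was called in sorted Six2 cells at E18.5, and its effect differed between the stages. At E14.5 it stood at 41.2, 41.2 and 59.2 CPM in WT and 30.6, 38.7 and 35.2 CPM in T1, lower in every T1 library but not past the test (log2 fold change -0.42 ± 0.15, SE, adjusted p = 0.106). At E18.5 it stood at 66.0, 63.7 and 60.2 CPM in WT and 112, 86.0 and 99.1 CPM in T1 (0.65 ± 0.09, adjusted p = 0.00011). The effect differed between the stages by 1.09 ± 0.19 (adjusted p = 0.00316), and without T1 library 1 the E18.5 value of 0.56 fell short of 1.5-fold.

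In whole kidneys Emx2 did not pass the test, with 89.2 and 111 CPM in WT, 109 and 109 CPM with T1 and 89.3 and 88.7 CPM with T3 in the Six2 lineage (log2 fold changes 0.12 ± 0.09 and -0.17 ± 0.09, SE, adjusted p = 0.478 and 0.278). The Foxd1 lineage gave 88.8, 83.4 and 85.6 CPM in WT and 96.5, 93.6 and 88.8 CPM in T1 (0.11 ± 0.05, adjusted p = 0.119). Sorted Foxd1 cells held 5.89, 5.6, 1.22 and 2.92 CPM in WT and 6.71, 4.03, 5.09 and 4.56 CPM in T1, which overlapped. The antisense gene Emx2os shares 8.8% of the exon length of Emx2, and its reads cannot be told apart there.

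Emx1 (ENSMUSG00000033726, chr6:85187438-85204462, plus strand), known from the cerebral cortex, was called lower with T1 in whole Six2 kidneys, at 7.12 and 9.57 CPM in WT, 5.13 and 5.46 CPM with T1 (log2 fold change -0.66 ± 0.15, SE, adjusted p = 0.0229) and 6.73 and 7.07 CPM with T3 (-0.28 ± 0.15, adjusted p = 0.257). The call was lost without either T1 library or WT library 2 (range -0.85 to -0.41) and with library size alone (-0.58). Whole Foxd1 kidneys held more, 26.9, 27.0 and 24.9 CPM in WT and 17.7, 18.3 and 21.6 CPM in T1, again lower in every T1 library but under 1.5-fold (-0.45 ± 0.08, adjusted p = 0.000827). Sorted Six2 cells had 0.133, 0.0714 and 0.290 CPM in WT and 0.190, 0.278 and 0.374 CPM in T1 at E14.5, and 1.24, 2.04 and 1.16 CPM in WT and 0.881, 0.426 and 0.919 CPM in T1 at E18.5 (-0.99 ± 0.34, adjusted p = 0.0588). Sorted Foxd1 libraries ranged from 0 to 1.96 CPM in WT and from 0 to 0.978 CPM in T1.

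**Figure D4:**
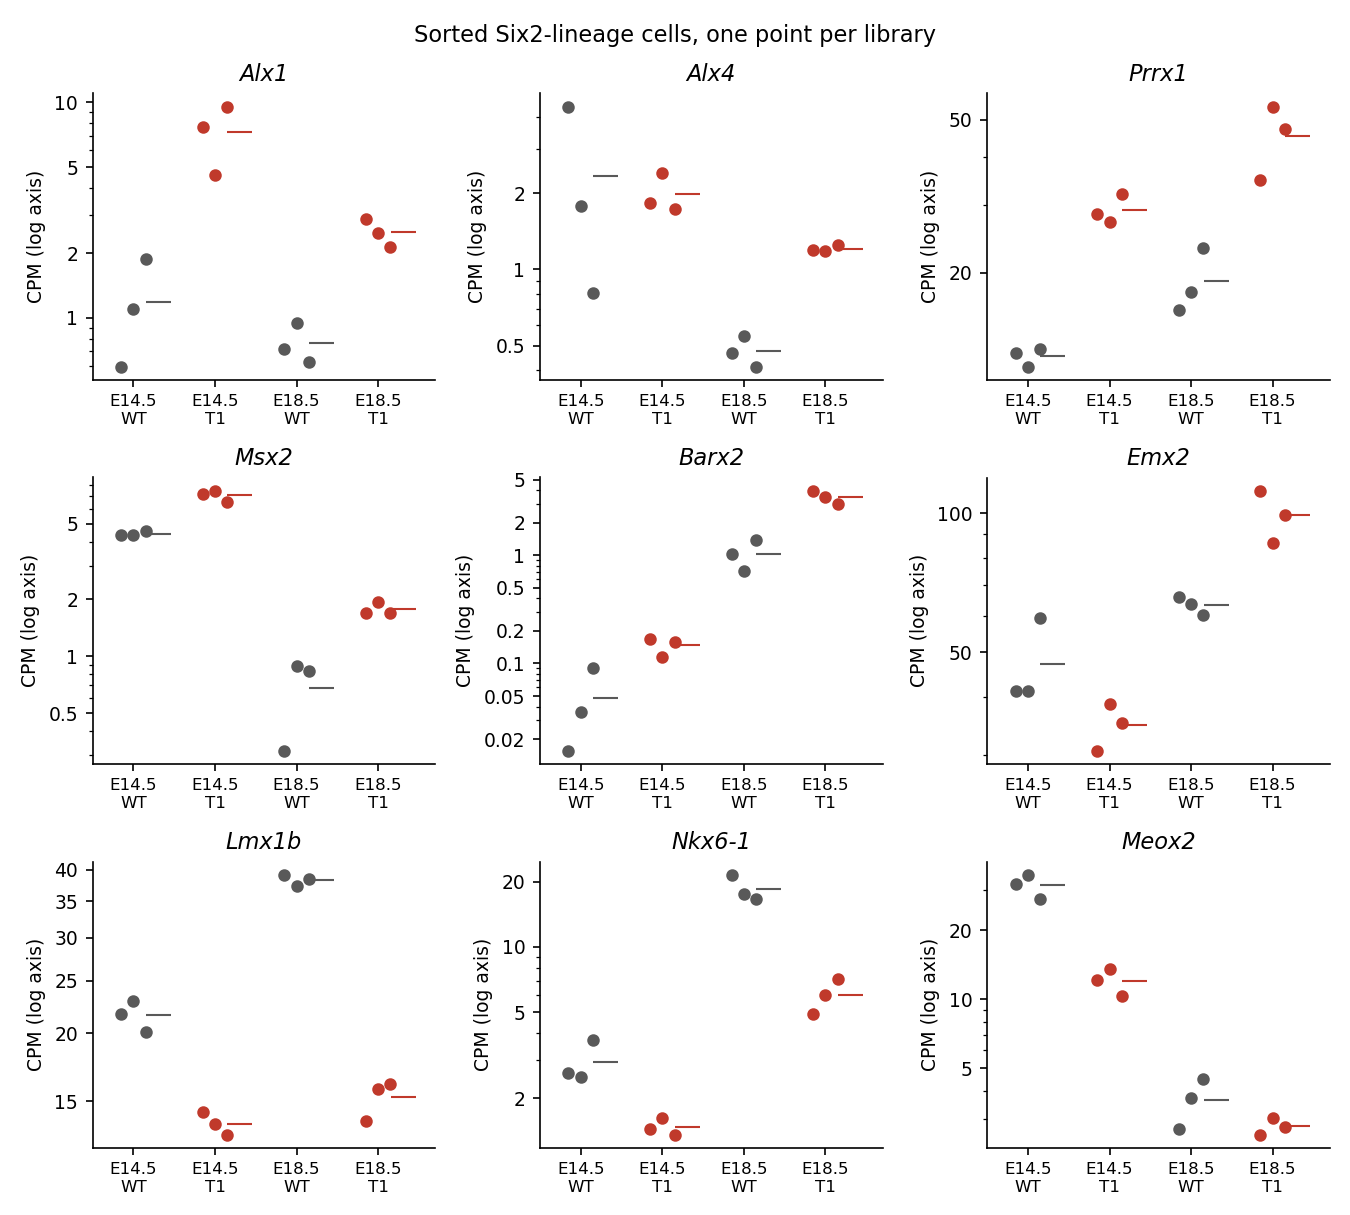
Levels of 9 members in sorted Six2 cells (y axes, CPM, log scale), 1 point per library with the group mean as a line, WT in gray and T1 in red, 3 libraries per group at E14.5 and E18.5. T1 lies above WT at both stages for Alx1, Prrx1 and Msx2 and below it for Lmx1b and Nkx6-1. Emx2 is higher in T1 at E18.5 only, and the Meox2 libraries of the genotypes are separate at E14.5 and overlap at E18.5.

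Lmx1b (ENSMUSG00000038765, chr2:33560965-33640511, minus strand), a LIM homeodomain factor of podocytes and of the dorsal limb, was called lower in all 4 Six2 comparisons. In sorted cells it went from 21.7, 22.9 and 20.1 CPM in WT to 14.3, 13.6 and 13.0 CPM in T1 at E14.5 (log2 fold change -0.65 ± 0.08, SE, adjusted p = 0.00176). At E18.5 it went from 39.2, 37.4 and 38.4 CPM to 13.8, 15.8 and 16.1 CPM (-1.33 ± 0.09, adjusted p = 2.22e-07). The replicates lay close together, and the effect was stronger at E18.5 by 0.67 on the log2 scale (interaction -0.67 ± 0.12, adjusted p = 0.00276).

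Whole Six2 kidneys held 11.4 and 14.4 CPM of Lmx1b in WT, 6.45 and 6.40 CPM with T1 (log2 fold change -1.01 ± 0.14, SE, adjusted p = 0.00323) and 4.22 and 5.11 CPM with T3 (-1.47 ± 0.15, adjusted p = 0.000559). All 4 of the Six2 calls were kept under every alternative other than a threshold of 2-fold. At that threshold the E14.5 call, with a log2 fold change of -0.65, was lost. Whole Foxd1 kidneys moved the other way, from 19.6, 17.3 and 16.9 CPM in WT to 21.3, 22.9 and 22.6 CPM in T1, under 1.5-fold (0.31 ± 0.07, adjusted p = 0.00572). Sorted Foxd1 libraries overlapped, at 6.73, 4.13, 4.88 and 1.09 CPM in WT and 2.61, 1.68, 4.00 and 2.28 CPM in T1 (-0.72 ± 0.42, adjusted p = 0.322).

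The podocyte markers moved with Lmx1b in the Six2 lineage. The 6 markers summed to 3500, 3770 and 3350 CPM in WT and 626, 608 and 673 CPM in T1 sorted cells at E18.5, where all 6 were lower in every T1 library. At E14.5 the sums were 304, 277 and 292 CPM in WT and 182, 190 and 186 CPM in T1, with 3 markers lower (Podxl and Wt1 among them) and Ptpro higher. In whole Six2 kidneys the sums were 919 and 1070 CPM in WT, 358 and 369 CPM with T1 and 361 and 350 CPM with T3. Whole Foxd1 kidneys gave 1130, 1150 and 1130 CPM in WT and 961, 1150 and 1170 CPM in T1. The part of podocyte number in the fall of Lmx1b was not tested.

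Lhx5 (ENSMUSG00000029595, chr5:120431699-120441223, plus strand), a factor of the early brain, was called higher in whole Six2 kidneys with T3. It had no count in either WT library, 0.0255 and 0.0339 CPM with T1 and 0.131 and 0.142 CPM with T3, which is at least 6.37-fold above the limit of detection in WT with T3 (adjusted p = 0.00706). The T1 libraries were just over the limit (adjusted p = 0.066). Sorted Six2 cells showed the same order at E14.5, at 0, 0 and 0.0382 CPM in WT and 0.106, 0.237 and 0.180 CPM in T1 (adjusted p = 0.0589), and overlapped at E18.5, at 0, 0.140 and 0.0710 CPM in WT and 0.131, 0.313 and 0.240 CPM in T1 (adjusted p = 0.206).

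Pax3 (ENSMUSG00000004872, chr1:78101267-78197134, minus strand), a factor of neural crest and muscle progenitors, was called higher with both alleles in whole Six2 kidneys, from 0.161 and 0.0922 CPM in WT to 0.465 and 0.577 CPM with T1 (log2 fold change 2.04 ± 0.39, SE, adjusted p = 0.0116) and 0.336 and 0.451 CPM with T3 (1.64 ± 0.39, adjusted p = 0.0262). No mutant library overlapped WT. The T1 call was lost without either T1 library (range 1.70 to 2.48) and the T3 call without any 1 library other than WT library 1 (range 1.30 to 2.09). Sorted Six2 cells were at 0 in WT and at 0.0917, 0 and 0.158 CPM in T1 at E14.5, and at 0.0253, 0.0891 and 0.128 CPM in WT and 0.131, 0.0752 and 0.107 CPM in T1 at E18.5. Foxd1 libraries had at most 0.0691 CPM in whole kidneys and 0 in sorted cells. Summed muscle markers were 49.9 CPM in WT library 2 of the whole Six2 kidneys and between 1.71 and 4.40 CPM in the other 5, so they were not higher in the mutants. The 7 markers of neurons and neural crest summed to 15.5 and 18.3 CPM in WT, 21.4 and 21.1 CPM with T1 and 19.2 and 23.1 CPM with T3, higher in all 4 mutant libraries. Their part in the rise of Pax3 was not tested.

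**Figure D5:**
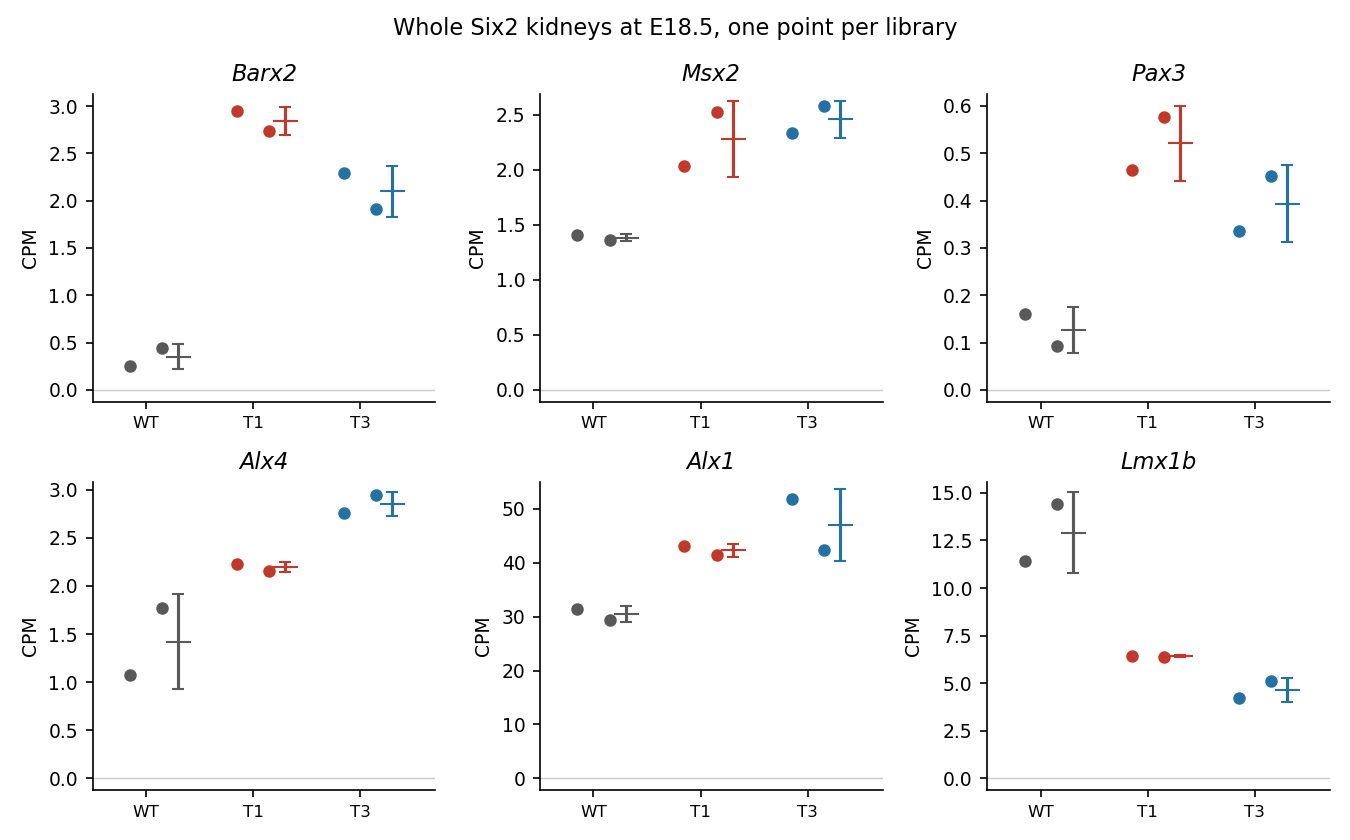
Levels of 6 members in whole Six2 kidneys at E18.5 (y axes, CPM from 0), 1 point per library, with the group mean and SD beside the points, for WT (gray), T1 (red) and T3 (blue), 2 libraries each. Barx2, Msx2, Pax3, Alx1 and Alx4 are higher in all 4 mutant libraries and Lmx1b is lower, with the same direction for both alleles.

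Meox2 (ENSMUSG00000036144, chr12:37108540-37179534, plus strand), a factor of somites and vessels, was called lower in sorted Six2 cells and higher in whole Foxd1 kidneys. In sorted Six2 cells at E14.5 it stood at 31.9, 35.0 and 27.4 CPM in WT and 12.1, 13.5 and 10.3 CPM in T1 (log2 fold change -1.38 ± 0.12, SE, adjusted p = 0.000364). By E18.5 it was low in both genotypes, at 2.73, 3.73 and 4.49 CPM in WT and 2.57, 3.03 and 2.78 CPM in T1 (-0.38 ± 0.20, adjusted p = 0.226). The effect differed between the stages by 1.01 ± 0.23 (adjusted p = 0.0161), and this call was lost without T1 library 2 of E18.5 (range 0.79 to 1.12).

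Meox2 rose in whole Foxd1 kidneys from 9.42, 7.93 and 8.55 CPM to 17.3, 13.7 and 14.2 CPM (log2 fold change 0.80 ± 0.11, SE, adjusted p = 8.14e-05), with no overlap. Sorted Foxd1 cells held 8.13, 4.42, 6.91 and 5.10 CPM in WT and 10.4, 8.39, 9.81 and 7.5 CPM in T1, overlapping (0.54 ± 0.24, adjusted p = 0.171), and whole Six2 kidneys 2.83 and 3.20 CPM in WT, 2.09 and 2.27 CPM with T1 and 2.51 and 2.66 CPM with T3. The 6 nephron progenitor markers moved in the same directions where Meox2 was called. They summed to 1800, 2050 and 1760 CPM in WT and 1030, 1070 and 883 CPM in T1 sorted Six2 cells at E14.5, and to 517, 482 and 500 CPM in WT and 897, 732 and 749 CPM in T1 whole Foxd1 kidneys, with all 6 markers moving alike in each. All 6 were also lower where Meox2 was not called, with sums of 1070 to 1380 CPM in WT and at most 503 CPM in T1 sorted Six2 cells at E18.5, and of 310 and 367 CPM in WT, 178 and 176 CPM with T1 and at most 166 CPM with T3 in whole Six2 kidneys. In whole Foxd1 kidneys the skeletal muscle markers summed to 3.88, 20.2 and 9.83 CPM in WT and 101, 3.21 and 3.91 CPM in T1. The T1 library with the highest sum also had the highest Meox2, and the call of Meox2 was kept without that library. The parts of progenitor number and of muscle RNA in the changes of Meox2 were not tested.

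The remaining called members were scarce. Evx2 (ENSMUSG00000001815, chr2:74652991-74659557, minus strand), which lies 8753 bases from Hoxd13 and is expressed with the Hoxd genes in the limb, stood at 0.101, 0.0127 and 0.0284 CPM in WT and 0.359, 0.414 and 0.186 CPM in T1 sorted Six2 cells at E18.5 (log2 fold change 2.71 ± 0.74, SE, adjusted p = 0.0195), a call lost without T1 library 1 or 2 or WT library 2 or 3 (range 2.26 to 3.89) and in a fit of all 12 sorted Six2 libraries (adjusted p = 0.0703). At E14.5 it had no count in any of the 6 libraries. Evx1, at 52618 bases from Hoxa13, was at 0 in the 3 WT libraries of E18.5 and at 0.0435, 0.0752 and 0.147 CPM in T1, too few counts to be tested. Cdx1, a ParaHox gene of the gut, went from 0.192 and 0.119 CPM in WT to 0.476 and 0.381 CPM with T3 in whole Six2 kidneys (1.47 ± 0.37, adjusted p = 0.0327), a call lost without any 1 library other than WT library 1 (range 1.17 to 1.85), and to 0.337 and 0.297 CPM with T1 (adjusted p = 0.121).

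Development from E14.5 to E18.5 was read in the WT sorted Six2 cells, where a call needed a change of more than 2-fold at an adjusted p below 0.01. Of 35 tested members, 9 were higher at E18.5 (among them Barx2, Dlx1, Emx1, Evx2, Lhx9, Nkx6-1, Pax3 and Pax9), where 24.8% of all genes were higher, and 4 lower (Alx4, Meox2, Msx2, Prrx2), where 20.6% of all genes were lower. Members were called higher about as often as all genes and lower less often than all genes, with no test of either share. Members that rose and stood well above the limit of detection at E18.5 were Barx2 (log2 fold change 4.41 ± 0.45, SE, adjusted p = 5.58e-07), Emx1 (3.16 ± 0.51, adjusted p = 5.88e-05) and Nkx6-1 (2.66 ± 0.18, adjusted p = 6.93e-09).

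Others rose from near 0. Lhx9, a factor of the gonad, had 1 count in all WT libraries of E14.5 and 109 at E18.5, a ratio of 191 with a 95% counting interval from 33.5 to 7600. Pax3 was at least 3.58-fold and Evx2 at least 2.1-fold above the limit of detection that a count of 0 allows at E14.5. Dlx1, of forebrain interneurons, went from a mean of 0.0128 to 0.215 CPM and Pax9, of pharyngeal pouches, from 0.0374 to 0.531 CPM. The call of Dlx1 was lost without E14.5 WT library 2 or E18.5 WT library 3, that of Pax9 without any 1 WT library other than E14.5 WT library 3 (range 3.22 to 4.76), and those of Evx2 and Pax3 on leaving out any 1 of 8 libraries, T1 libraries included. Their fitted sizes depend on the prior count, since both had no count at E14.5 in WT. With the replicate number as a block, the calls of Evx2, Pax3 and Pax9 were lost.

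Among the members that were lower at E18.5, Meox2 fell by 3.11 on the log2 scale (SE 0.17, adjusted p = 5.78e-10), Msx2 by 2.70 (SE 0.27, adjusted p = 4.08e-07), Alx4 by 2.29 (SE 0.46, adjusted p = 0.00048) and Prrx2 by 1.46 (SE 0.18, adjusted p = 4.18e-06). In T1 cells of E18.5, Msx2 and Alx4 were above WT and Meox2 overlapped WT. The development and genotype comparisons share the WT libraries, so values of both are given side by side only.

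Whether T1 acted differently at the stages was tested with an interaction over the 12 sorted Six2 libraries. Of 35 members, 2 had a higher effect at E18.5 (Emx2 and Meox2, 3.94% of all genes) and 3 a lower one (among them Lhx9 and Lmx1b, 4.22% of all genes). Lhx9 gave -4.87 ± 1.16 on the log2 scale (SE, adjusted p = 0.0198), from 0.0078, 0 and 0 CPM in WT and 0.0776, 0.0246 and 0.0934 CPM in T1 at E14.5 to 0.291, 0.395 and 0.781 CPM in WT and 0.261, 0.376 and 0.266 CPM in T1 at E18.5. At E14.5 this is 27 counts in T1 against 1 in WT, a ratio of 26.7 with a 95% counting interval from 4.41 to 1090. Lhx9 had too few counts for a test at E14.5 alone. Its WT mean there was under the limit of detection, so the size of the interaction is not resolved. The call was lost without WT library 2 of E14.5 (range -6.50 to -4.42). For Alx1, Prrx1 and Msx2, which rose at both stages, no difference between the stages was detected, with adjusted p from 0.284 to 1.

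Lineages were compared over the 14 sorted libraries of E18.5, with 10 members in the joint fit, of which 7 had enough counts in Foxd1 cells alone. Nkx6-1 had a higher effect in Foxd1 cells (8.25% of all genes), where its WT mean of 0.803 CPM was under the limit of detection of 1.01 CPM, and Alx1 and Prrx2 a lower one (7.63% of all genes). Alx1 gave -2.35 ± 0.19 on the log2 scale (SE, adjusted p = 2.13e-08), the difference between a fall in stroma and a rise in the nephron lineage. Prrx2 gave -0.97 ± 0.28 (adjusted p = 0.0202), which was lost without WT library 2 of the Six2 cells or WT library 2 of the Foxd1 cells (range -1.14 to -0.83). Per the methods the Six2 and Foxd1 samples differed in read length, and depth differed too, so that neither can be told apart from lineage. Sex is partly mixed with lineage, since all sorted Foxd1 libraries carried Ddx3y and the sorted Six2 libraries were of both kinds.

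Of the other members tested against WT in at least 1 comparison, 12 were called nowhere. These were Dlx2, Lhx2, Lhx4, Lhx6, Lmx1a, Nkx1-2, Nkx3-2, Nkx6-3, Pax5, Pax6, Pitx1 and Pitx3, which in the comparisons with WT had log2 fold changes between -1.16 and 2.08 and a lowest adjusted p of 0.0947. Between the stages of WT cells, Nkx1-2 had a log2 fold change of 4.32 ± 1.47 (SE, adjusted p = 0.0164), short of the threshold of 0.01. Lhx6, a factor of interneurons and teeth, was the most abundant of them with a group mean of up to 6.21 CPM. The 25 members that were tested nowhere against WT were Pax1 and 24 with group means of at most 0.249 CPM: Cdx2, Cdx4, Dlx4, Dlx6, Evx1, Gsx1, Gsx2, Lhx3, Lhx8, Msx3, Nkx1-1, Nkx2-1, Nkx2-2, Nkx2-3, Nkx2-4, Nkx2-5, Nkx2-6, Nkx2-9, Otx1, Otx2, Pax4, Pax7, Vax1 and Vax2. Nkx2-2, a factor of neural and endocrine progenitors and chosen here after its values were seen, was lower in every mutant whole kidney. It stood at 0.0768 and 0.105 CPM in WT, 0.00636 and 0 CPM with T1 and 0.028 and 0.00885 CPM with T3 in the Six2 lineage, and at 0.105, 0.166 and 0.228 CPM in WT and 0.0149, 0 and 0.0552 CPM in T1 in the Foxd1 lineage. These are 26 counts in WT against 1 with T1 and 4 with T3, and 38 against 5, too few to pass the filter, so that no test was made.

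The other homeobox genes gave a background for these counts. From a fixed list of 101 genes outside the Hox clusters and outside the member rule, 66 were tested in whole Six2 kidneys, of which 2 were higher and 3 lower with T1 and 6 higher and 6 lower with T3. Among 74 genes in sorted Six2 cells 6 were higher and 7 lower at E14.5, and 8 higher and 6 lower of 72 at E18.5. In Foxd1 samples 5 were higher and 1 lower of 40 in sorted cells, and 7 higher and 2 lower of 62 in whole kidneys. Their median log2 fold changes were 0.12 and 0.16 in whole Six2 kidneys with T1 and T3, -0.02 and 0 in sorted Six2 cells, 0.05 in sorted Foxd1 cells and 0.06 in whole Foxd1 kidneys.

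In the stromal lineage Zfhx4, a zinc finger homeobox factor, had a log2 fold change of 3.18 ± 0.27 (SE, adjusted p = 2.7e-07) in sorted Foxd1 cells and 2.81 ± 0.19 in whole Foxd1 kidneys. Six4 (1.53 ± 0.20) rose in the sorted cells and En2 (1.10 ± 0.28) in whole kidneys, where Hmx2 (-2.75 ± 0.21) and Hopx (-0.83 ± 0.11) were lower.

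In the Six2 lineage Hesx1, a paired-like pituitary gene, rose in whole kidneys (1.46 ± 0.28 with T1 and 1.82 ± 0.29 with T3, SE) and in sorted cells at E18.5 (2.60 ± 0.43), as did Zfhx4 (1.02 ± 0.18, 1.34 ± 0.18 and 1.73 ± 0.22). Pou3f4 was higher in sorted cells at E18.5 (3.25 ± 0.84), with a WT mean under the limit of detection. Tshz3 (2.11 ± 0.47), Hlx (1.82 ± 0.48) and Hopx (1.19 ± 0.29) led at E14.5. Among the genes that fell were Hmx2 (-1.50 ± 0.35) and Six2 (-1.20 ± 0.20) in whole kidneys with T1, and En2 (-2.49 ± 0.48), Six2 (-1.32 ± 0.20) and Six3 (-0.80 ± 0.19) with T3. In sorted cells they were En2 (-1.70 ± 0.27) and Irx4 (-1.45 ± 0.36) at E14.5 and Irx4 (-2.42 ± 0.74), Six2 (-1.29 ± 0.11) and Mkx (-1.23 ± 0.24) at E18.5. The Six2-TGC transgene is reported to carry Six3, and the counts do not separate its RNA from that of the endogenous Six3.

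Of the genes held out by the rule, Lhx1, which is needed for the renal vesicle, was called lower in sorted Six2 cells at E14.5 (log2 fold change -1.11 ± 0.12, SE, adjusted p = 0.000751) and E18.5 (-0.59 ± 0.12, adjusted p = 0.0032) and with T3 in whole Six2 kidneys (-0.65 ± 0.17, adjusted p = 0.0393). Pax2, a master gene of the kidney, was called higher in sorted Six2 cells at E18.5 (0.60 ± 0.08, adjusted p = 0.000146). Pax8 and Meox1 were not called against WT in any comparison.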

How the data were processed

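RNA of mouse embryonic kidneys was measured in 32 libraries of 11 groups. Per the study's methods, the authors made whole-kidney libraries with a stranded mRNA kit and libraries of sorted tdTomato+ cells with SMART-seq v4, sequenced paired-end reads, aligned them with HISAT2 to mm10 keeping 1 alignment per read, and used HTSeq, with no strand setting, to count the reads of each gene. The deposited values are raw counts in 4 tables, for 54752 genes, or 55471 in the table of sorted Foxd1 cells. The annotation release is not given in the sources used here. Of 55806 identifiers, 55536 had a name in GENCODE vM21 (GRCm38), and all 63 members were found in all tables.

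From these counts, genes with few counts were removed by filterByExpr (a minimum of 10, and 15 in total). TMM factors were computed within each experiment, and groups were compared with edgeR 4.0.16's quasi-likelihood test in R 4.3.3, with Benjamini-Hochberg adjustment over all tested genes. SE is the log2 fold change divided by the root of F. Calls needed an adjusted p under 0.05 and a change over 1.5-fold (0.01 and 2-fold between stages, 0.05 for interactions). The members, marker lists and rules were chosen with earlier results of these data known. Members were named when called in at least 1 comparison, and those called in 2 or more are given in every library. Counts cover all members, and the values of some genes are not reported here. Alternatives were DESeq2 1.42.0, edgeR's exact test, library size without TMM, other filters and thresholds, other sets of samples, the replicate number as a block, and leaving out each library in turn. The fits were tested on simulated data. Replicate pairs (33) had correlations of log values from 0.974 to 0.998, and the lowest chi-square per gene was 1.37, above counting noise. Libraries with the same number did not deviate together (r from -0.0791 to 0.139), so numbers were not used as pairs. Reads of genes that share exon sequence with a neighbor on the other strand, up to 16.6% of a member's exon length for Nkx1-2, cannot be assigned. Levels per kilobase use the union of exons.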

Additional observations from a re-analysis of the deposited data

Results flagged for a closer look

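The effect of T1 differed between stages or lineages for the following members, in a test of the difference itself. In sorted Six2 cells the effect at E18.5 minus that at E14.5 was 1.09 ± 0.19 on the log2 scale (SE, edgeR adjusted p = 0.00316) for Emx2, 1.01 ± 0.23 (adjusted p = 0.0161) for Meox2, -0.67 ± 0.12 (adjusted p = 0.00276) for Lmx1b and -4.87 ± 1.16 (adjusted p = 0.0198) for Lhx9. In sorted cells of E18.5 the effect in Foxd1 cells minus that in Six2 cells was -2.35 ± 0.19 (adjusted p = 2.13e-08) for Alx1, 2.54 ± 0.55 (adjusted p = 0.0025) for Nkx6-1 and -0.97 ± 0.28 (adjusted p = 0.0202) for Prrx2. The WT mean of Nkx6-1 in Foxd1 cells, 0.803 CPM, was under the limit of detection of 1.01 CPM, so the size of its difference is not resolved at this depth. For Lhx9 the WT mean at E14.5, 0.0026 CPM, was under the limit of 0.0226 CPM. Its counts were too few for a test at E14.5 alone, and the size of its difference is not resolved either.

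In whole kidneys of E18.5, every T1 library moved one way in the Six2 lineage and the other way in the Foxd1 lineage for 3 members, and this difference was not tested. The log2 fold changes in Six2 and Foxd1 kidneys were 0.48 and -0.48 for Alx1, -1.01 and 0.31 for Lmx1b and -0.47 and 0.80 for Meox2. Among the 7 members tested in sorted Foxd1 cells, no library of the WT or the T1 group stood apart. Groups of 2 or 3 libraries were not examined for this.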

How the results depend on the processing

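Of 67 calls of members, 38 were kept under every alternative in this tally and 29 were lost under at least 1. None of 1029 alternative values changed direction. Other thresholds were left out of the tally, as were settings in which a filter removed the gene, so some kept calls are lost at 2-fold. Calling at a change over 2-fold gave 6 members with T3 in whole Six2 kidneys (11 in the main analysis), 4 in sorted Six2 cells at E14.5 (7) and 1 in sorted Foxd1 cells (2). Over all genes it gave 572 higher and 772 lower, 627 and 219, and 233 and 114. The main analysis had 1039 and 1264, 921 and 511, and 462 and 277. A fit of the WT and T3 libraries alone gave 7, without Alx4, Cdx1, Dlx3 and Pax3, and a fit of WT and T1 alone lost Msx2. In sorted Foxd1 cells DESeq2 gave 1 and the test without a filter 5. Over all genes DESeq2 called 386 higher and 231 lower there, and the test without a filter 583 and 396. In whole Foxd1 kidneys (6), 10 of 23 tested members were called without a fold threshold, beside 3300 higher and 3432 lower of 20145 genes. Among genes over 1 CPM, 2 of 14 members were called there, beside 347 genes higher and 1126 lower. Between stages of WT cells (13), 20 of 35 members passed an adjusted p under 0.05 and 1.5-fold. Of all 25222 genes, 8246 were higher and 7719 lower at these thresholds. The lineage interaction (3) gave 5 without a filter and 5 among genes over 1 CPM. Over all genes it gave 1330 higher and 1121 lower, and 1150 and 1220.

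Leaving out 1 library gave counts from 3 to 9 with T1 in whole Six2 kidneys, where 3 remained without either T1 library, and from 4 to 11 with T3, where 4 remained without T3 library 1. The counts ranged from 6 to 10 in sorted Six2 cells at E14.5, from 10 to 11 at E18.5, from 0 to 3 in sorted Foxd1 cells (0 without T1 library 4), from 4 to 8 in whole Foxd1 kidneys, from 9 to 14 between stages of WT cells, from 4 to 8 for the stage interaction (8 without E14.5 WT library 3) and from 2 to 5 for the lineage interaction (5 without E18.5 Six2 T1 library 1, WT library 1 or WT library 3). T3 against T1 gave 0 throughout. With a replicate block the counts were 8, 10 and 0 in whole Six2 kidneys (T1, T3, T3 against T1), 7 and 11 in sorted Six2 cells, 2 and 6 in sorted and whole Foxd1 samples, 10 between stages, 5 for the stage interaction and 4 for the lineage interaction. Dlx5 with T1, Dlx3 with T3 and, between stages, Evx2, Pax3 and Pax9 were lost, and the libraries share only a number. With library size alone, the genes higher and lower in the stage interaction went from 995 and 1064 to 1268 and 882, and in the lineage interaction from 1226 and 1135 to 935 and 1555. The depth of sorted Foxd1 cells limits the members that could be tested there to 7. Where no cause is given for a lost call, the cause was not tested.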
